A study of Homo sapiens with 4 samples.

Results

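The ABC genes encode the ATP-binding cassette proteins. The 46 members described here are the genes whose symbol is ABC, a subfamily letter from A to G and a number, out of 53617 genes in the deposited tables. The rule uses the symbol alone and no measured value, although the family was picked for description with earlier results of these data known. The subfamilies held 12 genes (A), 9 (B), 12 (C), 4 (D), 1 (E), 3 (F) and 5 (G). The name "transporter" does not cover all of them as background: ABCE1 and the F members ABCF1, ABCF2 and ABCF3 have no membrane domain, ABCC8 and ABCC9 are regulatory subunits of potassium channels, and ABCC13 is annotated as a pseudogene in GENCODE 29.

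The series sequenced RNA from the human colon adenocarcinoma line HT29 to ask which mRNAs respond to the microRNA miR-23b. The 4 groups were cells given a miR-23b precursor (a synthetic RNA that supplies the microRNA), cells given the precursor's control, cells given an antimir (an oligonucleotide that blocks the microRNA), and cells given the antimir's control. All 4 groups received 50 nM of their agent, taking the "50nm" of the labels as a concentration, with Lipofectamine 2000 at 90% confluency in 5% serum; medium was changed at 24 h and RNA was taken with Trizol at 48 h, and the cells were at passages 12 to 13. Each group was 1 library of 1 line, so no difference below has a replicate check, no test between conditions was possible, and the differences describe these libraries only. In bulk RNA, fewer cells of a kind and less RNA per cell cannot be told apart.

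ABC transporters use ATP bound at paired nucleotide-binding domains to move substrates across a membrane. In the intestinal epithelium and in tumours derived from it they are best known for exporting conjugated drugs, bile salts and sterols, and several of the B, C and G members are studied as pumps that lower the drug level inside cancer cells. Other members work inside the cell, in mitochondria, lysosomes and peroxisomes, and the soluble E and F members act on ribosomes and translation.

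A microRNA pairs with mRNAs mainly through its seed, so the mature miR-23b-3p is shown first (RefSeq, GRCh38.p14, chr9:95085265-95085287, plus strand, 23 bases), with the seed, bases 2 to 8, in capitals. The other lines show 4 of the 5 sites in the ABC genes that are complementary to that seed, with the 7 matching bases in capitals, because they are the members a direct action of the microRNA would address by sequence.
miR-23b-3p: aUCACAUUgccagggauuaccac
ABCA1: cctagaaagcAATGTGAtggtcaggat
ABCA5: tacataaagcAATGTGAaagtttcttg
ABCA10: attctaatttAATGTGAcattgactat
ABCC4: gaaggacacaAATGTGAccgtccatcc
The motif AATGTGA was searched on the transcript strand in the longest annotated 3′ UTR of each gene (GENCODE 29, matched by identifier). Of the 45 members with an annotated 3′ UTR, 5 held the motif, each of them 1 time, and in 1 of them, ABCA5, an A followed it. Counted from the first base after the stop codon, the sites lay at bases 1198 to 1204 of 3313 in ABCA1, 422 to 428 of 3226 in ABCA5, 404 to 410 of 820 in ABCA10 and 701 to 707 of 1746 in ABCC4. A match is a description of these letters and not evidence of binding.

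Levels are FPKM, the authors' read density per transcript length and library size, summed here over a gene's annotated transcripts. The authors normalised the precursor table and the antimir table separately, so levels are compared within a table and set side by side across them. A difference is the log2(FPKM + 1) of the treated library minus that of its control, centred on the median of all genes whose mean over the 2 libraries was 1 FPKM or more; it understates the change of low genes. Of the 46 members, 24 passed this filter in both tables and 22 in neither. The 22 others reached at most 1.08 FPKM in any library, and 3 of them, ABCA8, ABCC9 and ABCC12, were listed at 0 in all 4 libraries. Read depth is unknown, because FPKM carries no counts.

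The identity of the cells and the microRNA were checked first. Of 10 colon epithelium markers, 8 passed the filter in both tables, while CDX1 and CDH17 were below 1 FPKM in all 4 libraries. Most markers of other tissues were at or near 0, with ALB at most 0.0153 FPKM and PTPRC at most 0.00645 FPKM. Exceptions that passed the filter in both tables were SERPINA1 of the hepatocyte list (196 to 333 FPKM) and CD14 of the leukocyte list (1.74 to 2.76 FPKM). CYP3A4 of the hepatocyte list passed in the precursor table alone (1.34 FPKM in the precursor library and 1.90 FPKM in its control). It was at most 0.0458 FPKM in the antimir table. COL1A1 of the fibroblast and endothelium list was below the filter, at 0.562 to 0.816 FPKM. By comparison, CDX1 stood at 0.319 to 0.689 FPKM and CDH17 at 0.181 to 0.519 FPKM. MIR23B was listed at 0 in all 4 libraries, so the tables do not show the level of the microRNA itself. A set of 20 interferon-induced genes, chosen after earlier results were known, had 20 of 20 past 1.5-fold higher in the antimir library than in its control, with a median difference of 1.64; with the precursor 14 of the 17 measured were lower, with a median of -0.26. Its part in the differences of the ABC genes was not tested.

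**Figure D1:**
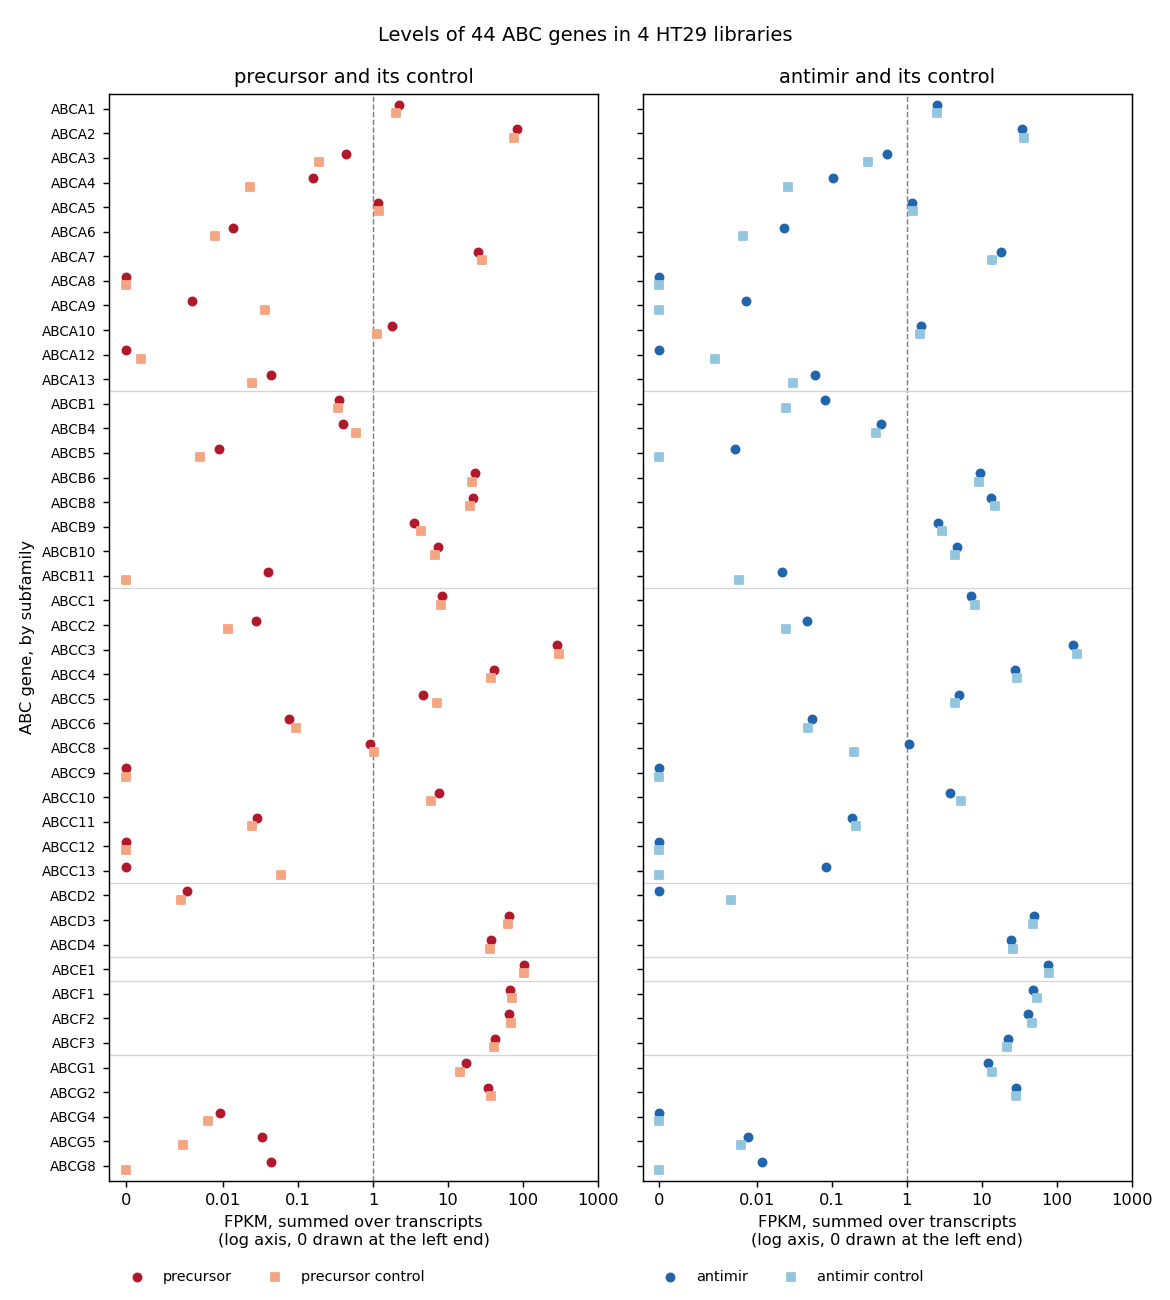
FPKM of 44 of the 46 ABC genes by subfamily, in the precursor library and its control (left) and in the antimir library and its control (right), on log axes with 0 drawn at the left end. The dashed line marks 1 FPKM, and the paired points of most genes lie close together; 22 of the genes drawn have a mean at or above the line in both tables.

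Summed over all transcript types, ABCC3 was the most abundant member in every library and ABCE1 came next in every library. From protein-coding transcripts alone, ABCF1 stood above ABCC3 in every library. The values were 56.0 against 49.2 FPKM in the precursor library and 56.5 against 43.7 FPKM in its control. They were 44.5 against 32.3 FPKM in the antimir library and 46.6 against 41.7 FPKM in its control. ABCC3 (MRP3, ENSG00000108846.10, hg19 chr17:48712138-48769063) is an exporter of bile salts and glucuronides at the basolateral membrane. It stood at 287 FPKM in the precursor library and 297 FPKM in its control, and at 165 FPKM in the antimir library and 186 FPKM in its control. These levels were above those of 95.8% and 96.2% of the measured protein-coding genes in the precursor table, and above 95.2% and 95.7% of those in the antimir table. ABCE1, which separates ribosomal subunits after translation ends, stood at 103 FPKM in both libraries of the precursor table, and at 77.3 FPKM in the antimir library and 79.8 FPKM in its control. The order below these differed between the tables: ABCA2, a lipid transporter of endosomes and lysosomes, was at rank 3 in both libraries of the precursor table and at rank 6 in both libraries of the antimir table. It stood at 82.6 FPKM in the precursor library and 75.7 FPKM in its control, and at 34.6 FPKM in the antimir library and 36.2 FPKM in its control.

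The family sum was 1015 FPKM in the precursor library and 1011 FPKM in its control, and 631 FPKM in the antimir library and 673 FPKM in its control. Subfamily C took 34.4% of the family sum in the precursor library against 35.3% in its control, and 33.3% in the antimir library against 34.8% in its control, most of it from ABCC3. Subfamily F followed with 17.2% and 18.1% in the precursor library and its control, and 17.8% and 18.3% in the antimir library and its control. By the sum over all transcripts, each treated library thus had a makeup by these subfamilies close to that of its control. From protein-coding transcripts alone, subfamily F stood above subfamily C in every library. The sums were 102 against 88.0 FPKM in the precursor library and 105 against 78.1 FPKM in its control. They were 88.8 against 64.3 FPKM in the antimir library and 95.0 against 80.8 FPKM in its control.

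Which members differed when miR-23b was supplied, and which when it was blocked, are the questions of the 2 comparisons. None of the 24 measured members was past 1.5-fold in the precursor comparison, where 1.15% of all measured protein-coding genes and 6.68% of all measured genes were. None was past 1.5-fold in the antimir comparison either, where 2.63% of protein-coding genes and 7.97% of all genes were. At these background shares a group of 24 genes would hold fewer than 1 such protein-coding gene, so a count of 0 does not set the family apart. The precursor differences ran between -0.53 (ABCC5) and 0.38 (ABCA10), and the antimir differences between -0.38 (ABCC10) and 0.42 (ABCA7).

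The median difference of the members was 0.02 in the precursor comparison, with 15 above 0 and 9 below, beside a median of 0.01 over protein-coding genes. It was -0.02 in the antimir comparison, with 11 above 0 and 13 below, beside -0.0023 over protein-coding genes. Opposite signs in the 2 comparisons were seen for 12 members: 8 were above 0 with the precursor and below 0 with the antimir, and 4 the other way round. The other 12 had the same sign in both, 7 above 0 and 5 below.

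**Figure D2:**
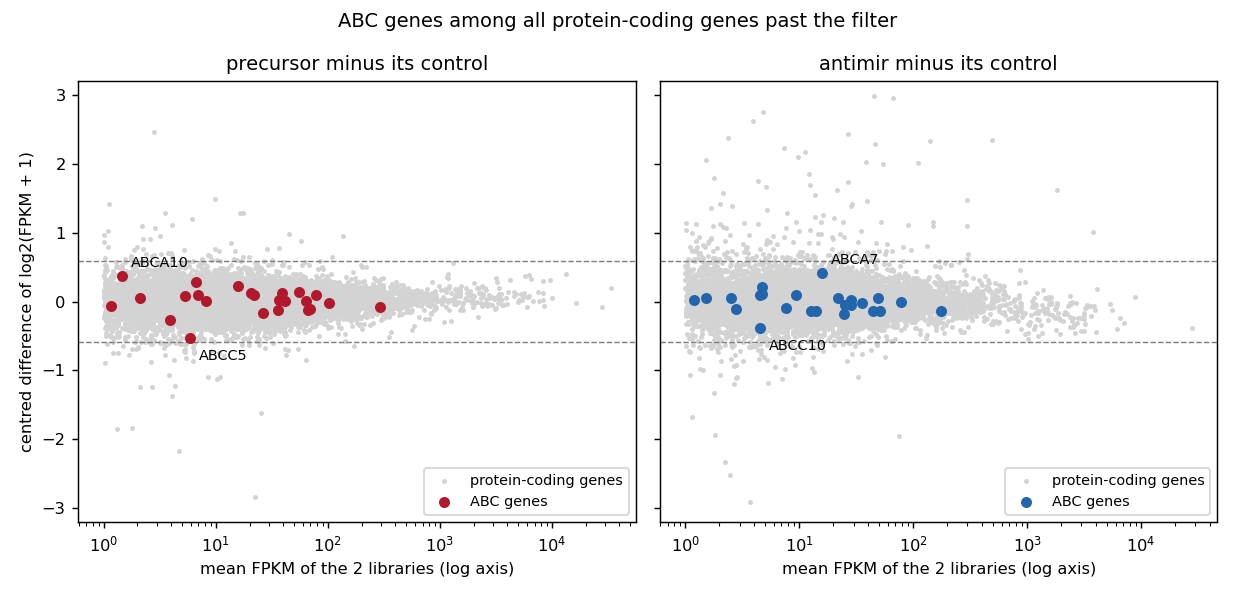
Centred log2(FPKM + 1) differences against mean FPKM for all measured protein-coding genes (grey) and the 24 measured ABC genes (coloured), precursor minus its control on the left and antimir minus its control on the right; dashed lines mark 1.5-fold. The ABC points lie inside the grey cloud and between the dashed lines; 1 protein-coding gene on the left and 2 on the right fall outside the axis.

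Of the 11 drug efflux pumps, 6 were measured: ABCC1, ABCC3, ABCC4, ABCC5, ABCC10 and ABCG2. Their number above and below 0 was 3 and 3 in the precursor comparison (median -0.03) and 2 and 4 in the antimir comparison (median -0.07). The 11 pumps together summed to 383 FPKM in the precursor library and 393 FPKM in its control, and to 238 FPKM in the antimir library and 263 FPKM in its control. As a share of the family this was 37.8% and 38.9% in the precursor library and its control, and 37.7% and 39.0% in the antimir library and its control.

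ABCC5 (MRP5, ENSG00000114770.11, hg19 chr3:183637722-183735803), an exporter of cyclic nucleotides and nucleotide analogues, had the lowest difference of any member with the precursor. It stood at 4.69 FPKM in the precursor library and 7.10 FPKM in its control, a difference of -0.53, just inside the 1.5-fold line. In the antimir library it stood at 5.03 FPKM and in its control at 4.34 FPKM, a difference of 0.21. The precursor library was thus lower than its control and the antimir library higher than its own. In the precursor table its most abundant transcript by the mean of the 2 libraries, ENST00000437341.1, stood at 1.03 FPKM in the precursor library and 1.502 FPKM in its control, and ENST00000443497.1, annotated as subject to nonsense-mediated decay, at 0.546 FPKM and 1.44 FPKM. Its longest 3′ UTR of 3912 bases held no AATGTGA.

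ABCC10 (MRP7), which exports taxanes and other lipophilic drugs, had the opposite order. It stood at 7.54 FPKM in the precursor library and 5.89 FPKM in its control (difference 0.29), and at 3.76 FPKM in the antimir library and 5.37 FPKM in its control (difference -0.38). The protein-coding transcript ENST00000372515.4 lay at 2.07 FPKM in the precursor library and 1.20 FPKM in its control, and at 0.444 FPKM in the antimir library and 1.52 FPKM in its control. ABCC5 and ABCC10, both low-level pumps, therefore held the widest differences among the pumps, in opposite directions.

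The other measured pumps differed less. ABCC4 (MRP4), an exporter of cyclic nucleotides and prostaglandins and the only pump with a seed match, stood at 41.1 FPKM in the precursor library and 37.1 FPKM in its control (0.12), and at 27.8 FPKM in the antimir library and 29.7 FPKM in its control (-0.05). ABCG2 (BCRP), an apical pump of many drugs and of urate, stood at 34.6 FPKM in the precursor library and 37.1 FPKM in its control (-0.12), and at 28.4 FPKM in the antimir library and 28.6 FPKM in its control (0.03). ABCC1 (MRP1), a pump of glutathione conjugates, stood at 8.29 FPKM in the precursor library and 8.08 FPKM in its control (0.01), and at 7.26 FPKM in the antimir library and 8.05 FPKM in its control (-0.10). The differences of ABCC3 were -0.07 and -0.13, and from protein-coding transcripts only 0.13 and -0.32.

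The 5 pumps below the filter included the one most often studied in drug resistance. ABCB1 (P-glycoprotein, MDR1) stood at 0.346 FPKM in the precursor library and 0.337 FPKM in its control, and at 0.0811 FPKM in the antimir library and 0.0246 FPKM in its control. ABCC2 (MRP2), an apical exporter of conjugates, reached at most 0.0467 FPKM, ABCC6 at most 0.0946 FPKM and ABCC11 at most 0.211 FPKM, and ABCC12 was listed at 0. Reads from ABCC6 can be shared with its near-identical pseudogenes, which leaves its value uncertain. On the FPKM scale, per transcript length and summed over all transcript types, the order was ABCC3, then ABCC4 and ABCG2. ABCC1, ABCC5 and ABCC10 were at 8.29 FPKM or less. From protein-coding transcripts alone the lead of ABCC3 was much smaller, and ABCG2 stood above ABCC4 in every library. In the precursor library ABCC3 stood at 49.2, ABCG2 at 34.6 and ABCC4 at 28.2 FPKM. In its control they stood at 43.7, 37.1 and 25.0 FPKM. They stood at 32.3, 28.4 and 24.7 FPKM in the antimir library, and at 41.7, 28.6 and 27.3 FPKM in its control.

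Of the 12 sterol, phospholipid and bile salt transporters, 4 were measured, with medians of 0.07 with the precursor and 0.01 with the antimir. ABCA7, a phospholipid transporter, held the highest difference of any member with the antimir: 18.0 FPKM in the antimir library and 13.6 FPKM in its control (0.42), beside 25.3 FPKM in the precursor library and 27.9 FPKM in its control (-0.16, but 0.01 from the most abundant isoform alone). ABCG1, which exports cholesterol to lipoproteins, stood at 17.1 FPKM in the precursor library and 14.2 FPKM in its control (0.23), and at 12.0 FPKM in the antimir library and 13.6 FPKM in its control (-0.14); the most abundant isoform alone turned both signs (-0.03 and 0.23), and protein-coding transcripts only turned that with the antimir (0.08). ABCA2 had differences of 0.10 and -0.03. Protein-coding transcripts only turned both of its signs (-0.05 with the precursor and 0.47 with the antimir), and its most abundant isoform alone gave 0.31 and 0.35. ABCA1, which loads cholesterol onto apolipoprotein A-I and carries a seed match, stood at 2.19 FPKM in the precursor library and 2.04 FPKM in its control (0.05), and at 2.56 FPKM in the antimir library and 2.54 FPKM in its control (0.04). The 8 members below the filter reached at most 0.584 FPKM; they included the canalicular transporters ABCB4 and ABCB11 and the sterol pair ABCG5 and ABCG8.

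ABCA5 and ABCA10, neighbours in a cluster on chromosome 17, are the other A members past the filter. ABCA10 held the highest difference with the precursor, at 1.79 FPKM in the precursor library and 1.12 FPKM in its control (0.38), and stood at 1.53 FPKM in the antimir library and 1.505 FPKM in its control (0.05). More of its FPKM came from the processed transcript ENST00000519732.1 than from any other, at 1.08 FPKM in the precursor library and 0.803 FPKM in its control. The protein-coding transcripts of ABCA10 differed more, at 0.536 FPKM in the precursor library and 0.0819 FPKM in its control. ABCA5 stood at 1.15 FPKM in the precursor library and 1.20 FPKM in its control (-0.06), and at 1.19 FPKM in the antimir library and 1.22 FPKM in its control (0.02). Both were near the filter.

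Of the 9 mitochondrial, lysosomal and peroxisomal members, 8 were measured, with 7 above 0 with the precursor (median 0.09) and 4 above 0 with the antimir (median 0.00). Over protein-coding genes 51.3% were above 0 with the precursor and 49.5% with the antimir. ABCB8, of the mitochondrial inner membrane, stood at 21.7 FPKM in the precursor library and 19.5 FPKM in its control (0.13), and at 13.2 FPKM in the antimir library and 14.997 FPKM in its control (-0.14). Its signs turned with protein-coding transcripts only (-0.05 with the precursor and 0.10 with the antimir), and the most abundant isoform alone gave 0.00 with the antimir.

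ABCB9, a lysosomal peptide transporter, was the exception with the precursor, at 3.48 FPKM in the precursor library and 4.33 FPKM in its control (-0.27); with the antimir it stood at 2.61 FPKM in the antimir library and 2.99 FPKM in its control (-0.11). ABCB6, linked to porphyrin transport, stood at 22.7 FPKM in the precursor library and 20.8 FPKM in its control (0.09), and at 9.55 FPKM in the antimir library and 9.17 FPKM in its control (0.09). ABCB10, linked to haem synthesis in mitochondria, stood at 7.27 FPKM in the precursor library and 6.66 FPKM in its control (0.09), and at 4.64 FPKM in the antimir library and 4.42 FPKM in its control (0.10). These 2 lay above their control in both comparisons. ABCD3, which imports into peroxisomes branched-chain and bile acid precursors, was the most abundant D member, at 65.2 FPKM in the precursor library and 63.5 FPKM in its control (0.02), and at 49.2 FPKM in the antimir library and 48.5 FPKM in its control (0.06). ABCD4, a lysosomal protein of cobalamin release, had differences of 0.03 and -0.06, and ABCD2 was below the filter.

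Of the 4 soluble members, 1 was above 0 and 3 below in each comparison, with medians of -0.06 and -0.07. ABCF1, a factor of translation initiation, was the most abundant F member by the mean of each table, at 67.9 FPKM in the precursor library and 71.7 FPKM in its control (-0.10), and at 48.0 FPKM in the antimir library and 54.0 FPKM in its control (-0.13). ABCF2 stood at 64.9 FPKM in the precursor library and 69.4 FPKM in its control (-0.12), and at 41.8 FPKM in the antimir library and 47.3 FPKM in its control (-0.14). The differences of ABCF3 were 0.00 and 0.05, and those of ABCE1 were -0.03 and -0.01. Some of these signs turned with the choice of transcripts. The most abundant isoform alone gave 0.14 for ABCF1 in both comparisons. With the antimir it gave 0.07 for ABCE1 and -0.11 for ABCF3. Protein-coding transcripts only gave 0.08 for ABCE1 and -0.10 for ABCF3 with the antimir, and -0.60 for ABCF3 with the precursor. ABCF2 stayed below 0 in both comparisons under both choices.

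Neither channel subunit passed the filter. ABCC8, the sulfonylurea receptor of pancreatic beta cells, stood at 0.919 FPKM in the precursor library and 1.02 FPKM in its control, and at 1.08 FPKM in the antimir library and 0.199 FPKM in its control. Its summed level came almost wholly from transcripts annotated as retained introns or as subject to nonsense-mediated decay, with at most 2.31e-05 FPKM from protein-coding ones.

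**Figure D3:**
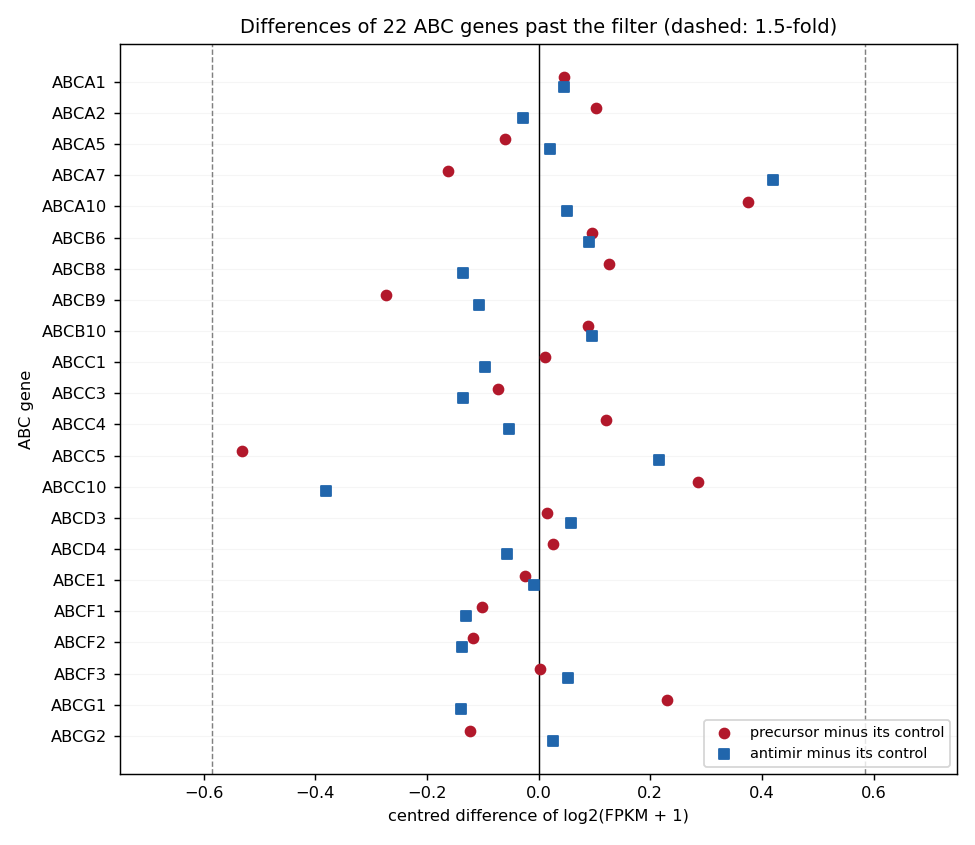
Centred log2(FPKM + 1) differences of 22 of the 24 measured ABC genes, precursor minus its control (circles) and antimir minus its control (squares), with dashed lines at 1.5-fold. ABCC5 at -0.53 with the precursor lies nearest a dashed line, and ABCC5 and ABCC10 lie on opposite sides of 0 in the 2 comparisons.

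The share of members with a seed match was close to that of other genes. All 5 members with a match were measured, 20.8% of the 24 members, beside 20.5% of measured protein-coding genes with a 3′ UTR in the precursor table (20.7% of those in the antimir table). With the precursor, the 5 had a median difference of 0.09, with 4 above 0, and the 19 without a match a median of 0.01; over protein-coding genes the medians were -0.02 with a match and 0.01 without. With the antimir, the 5 had a median of 0.04, with 4 above 0, and the others -0.06; over protein-coding genes the medians were -0.0031 with a match and -0.0018 without. The longest 3′ UTR had a median of 1746 bases in the members with a match and 1052 bases in those without, so length differed along with the match, and its part was not tested.

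The transcripts of the members are described next to their gene sums. The members held 454 transcripts, from 1 to 31 per gene, and the split of reads among them is the estimate of the authors' software. In the authors' deposited table for the precursor, 41 of 218 tested transcripts of members were called (18.8%), 19 higher and 22 lower, beside 13.6% of all tested transcripts (6.91% higher and 6.66% lower). In the authors' deposited table for the antimir, 4 of 173 were called (2.31%), 1 higher and 3 lower, beside 0.414% of all tested transcripts (0.243% higher and 0.171% lower). These calls compare 2 libraries and not 2 conditions. The 41 calls of the precursor table fell in 17 genes in the authors' deposited table, and in 10 of these genes some transcripts were called higher and others lower.

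ABCC1 is an example (ENSG00000103222.12, hg19 chr16:16043434-16236931). Its sum differed by 0.01 with the precursor, yet ENST00000399410.3 stood at 3.63 FPKM (43.7% of the gene) in the precursor library and 1.66 FPKM (20.5%) in its control. It is the only deposited ABCC1 transcript with FPKM above 0 that matched GENCODE 29 by identifier, where it is protein-coding; the type of the others is not known here. With the antimir the transcript stood at 2.08 FPKM (28.7%) in the antimir library and 6.04 FPKM (75.003%) in its control. The authors' deposited table called it higher with the precursor (q = 1.02e-12) and lower with the antimir (q = 2.76e-05). The 2 control libraries, whose tables were normalised separately, gave it 20.5% and 75.003% of the gene, which is farther apart than either treated library was from its control. Of the other ABCC1 transcripts, 3 were called lower with the precursor in the authors' deposited table: ENST00000345148.5, at 0.362 FPKM in the precursor library and 0.979 FPKM in its control, and the next 2. ENST00000349029.5 stood at 1.248 FPKM in the precursor library and 2.71 FPKM in its control, and ENST00000346370.5 was listed at 0 in the precursor library, against 0.687 FPKM in its control.

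In the authors' deposited table for the antimir, ABCB4 ENST00000358400.3, listed at 0 in the antimir library and at 0.386 FPKM in its control, was also called lower, in a gene below the filter.

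Among the pumps, ABCC3 drew most of its FPKM from transcripts not annotated as protein-coding. Protein-coding transcripts gave 17.1% of it in the precursor library against 14.7% in its control, and 19.6% in the antimir library against 22.4% in its control. Its coding transcript ENST00000285238.7 stood at 25.6 FPKM in the precursor library and 19.6 FPKM in its control, called higher in the authors' deposited table (q = 0.00572), and at 24.3 FPKM in the antimir library and 31.0 FPKM in its control, not called. The processed transcripts ENST00000503304.1 and ENST00000506464.1 were its most abundant forms, the first at 51.0 FPKM in the precursor library and 50.2 FPKM in its control, and the second at 38.6 FPKM in the antimir library and 43.4 FPKM in its control. ABCG2 was the contrast, with 100% of its FPKM from protein-coding transcripts in every library. Its ENST00000505480.1 stood at 6.56 FPKM in the antimir library and 1.81 FPKM in its control, while ENST00000503830.1 stood at 6.41 FPKM and 13.4 FPKM, neither called in the authors' deposited table. ABCC4 was carried by the protein-coding ENST00000376887.4, at 27.6 FPKM in the precursor library and 24.5 FPKM in its control, and at 24.3 FPKM in the antimir library and 26.9 FPKM in its control.

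**Figure D4:**
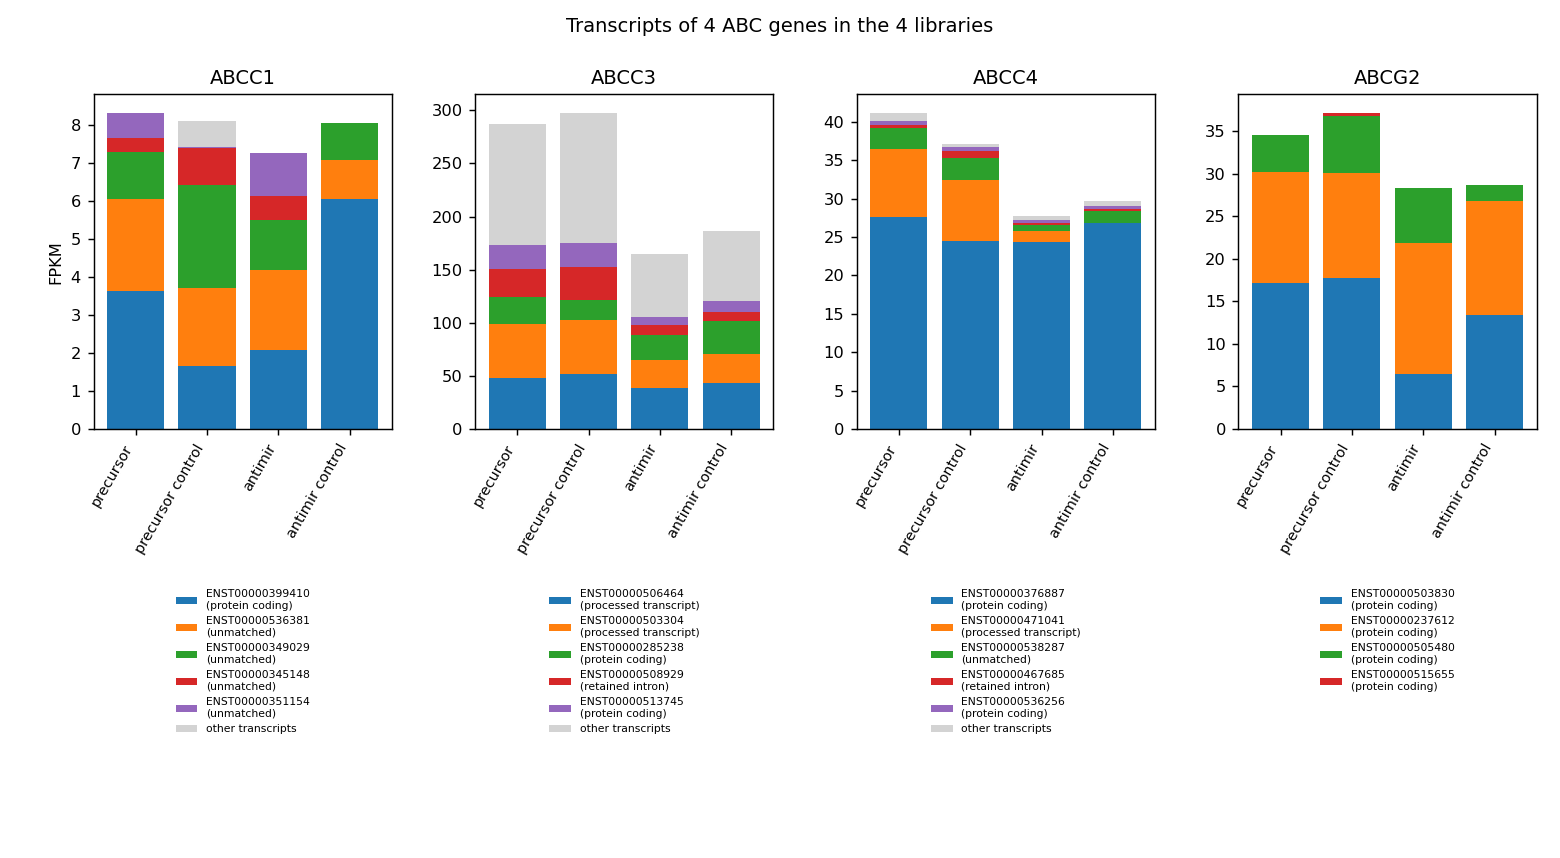
FPKM of the transcripts of ABCC1, ABCC3, ABCC4 and ABCG2 in the 4 libraries, stacked to the gene's sum, with up to 5 transcripts per gene in colour, their GENCODE 29 type in the legend and the rest in grey. The protein-coding ABCC1 transcript (blue) is 3.63 and 1.66 FPKM in the precursor library and its control, and 2.08 and 6.04 FPKM in the antimir library and its control; the 2 tables were normalised separately.

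Further calls of the precursor table lay in pumps, soluble members, lipid transporters and organelle members. Among the pumps, the authors' deposited table called ABCC5 ENST00000334444.6 lower (listed at 0 in the precursor library, against 0.288 FPKM in its control), ABCG2 ENST00000515655.1 lower (listed at 0, against 0.325 FPKM) and ABCC4 ENST00000412704.1 higher (0.220 FPKM, against a listing at 0 in the control). Among the soluble members, the authors' deposited table called ABCF1 ENST00000326195.8 lower, at 2.37 FPKM in the precursor library and 3.35 FPKM in its control, and ABCF3 ENST00000292808.5 lower, at 1.33 FPKM and 2.43 FPKM. For ABCG1, the authors' deposited table called ENST00000361802.2 higher, at 4.46 FPKM in the precursor library and 2.21 FPKM in its control, and ENST00000343687.3 lower, at 0.0272 FPKM and 0.368 FPKM. For ABCB6, it called the protein-coding ENST00000265316.3 higher, at 1.72 FPKM in the precursor library and 0.462 FPKM in its control. For ABCA5, whose 3′ UTR with the seed match belongs to ENST00000392676, the authors' deposited table called that transcript lower, at 0.296 FPKM in the precursor library and 0.630 FPKM in its control, and ENST00000392677.2 higher, at 0.849 FPKM and 0.571 FPKM. In the antimir table ENST00000392676.2 stood at 0.662 FPKM in the antimir library and 0.686 FPKM in its control and was not called. Both transcripts were below 1 FPKM, and the 3′ UTR of ENST00000392677.2, which has no match in GENCODE 29, was not searched for the motif.

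By annotated type, protein-coding transcripts gave 37.6% of the family's FPKM in the precursor library against 36.4% in its control, and 50.3% in the antimir library against 49.7% in its control. Over all protein-coding genes these shares were 65.2% and 64.4% in the precursor table, and 68.4% and 69.8% in the antimir table. Retained-intron transcripts gave 18.5% of the family's FPKM in the precursor library against 19.4% in its control, and 13.7% in the antimir library against 14.1% in its control. As a sum, the coding share of the family differed more between the 2 tables than between a treated library and its control, but ABCC3 weighs heavily in that sum. The median coding share per member was 47.2% in the precursor library against 54.3% in its control, and 53.6% in the antimir library against 59.5% in its control. Over measured protein-coding genes, the median share per gene was 60.9% in the precursor library against 60.1% in its control. It was 71.0% in the antimir library against 70.8% in its control.

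Summing protein-coding transcripts only, an alternative chosen after seeing the data, left 22 members measured and placed 3 of them past 1.5-fold with the precursor: ABCB6 (0.96), ABCC1 (0.76) and ABCF3 (-0.60), where 1.77% of all genes measured this way were past it. With the antimir 1 member was past it, ABCC1 (-1.15), where 3.72% of genes were. The ABCC1 values are those of ENST00000399410.3 alone, since transcripts of unknown type were dropped; these held 4.67 FPKM in the precursor library and 6.43 FPKM in its control, and 5.18 FPKM in the antimir library and 2.01 FPKM in its control, and the whole sum of the gene differed by 0.01 and -0.10. The ABCF3 value rests on a gene in which coding transcripts were 3.16% of the FPKM in the precursor library against 5.89% in its control, and the ABCB6 value on 8.98% and 2.53%.

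**Figure D5:**
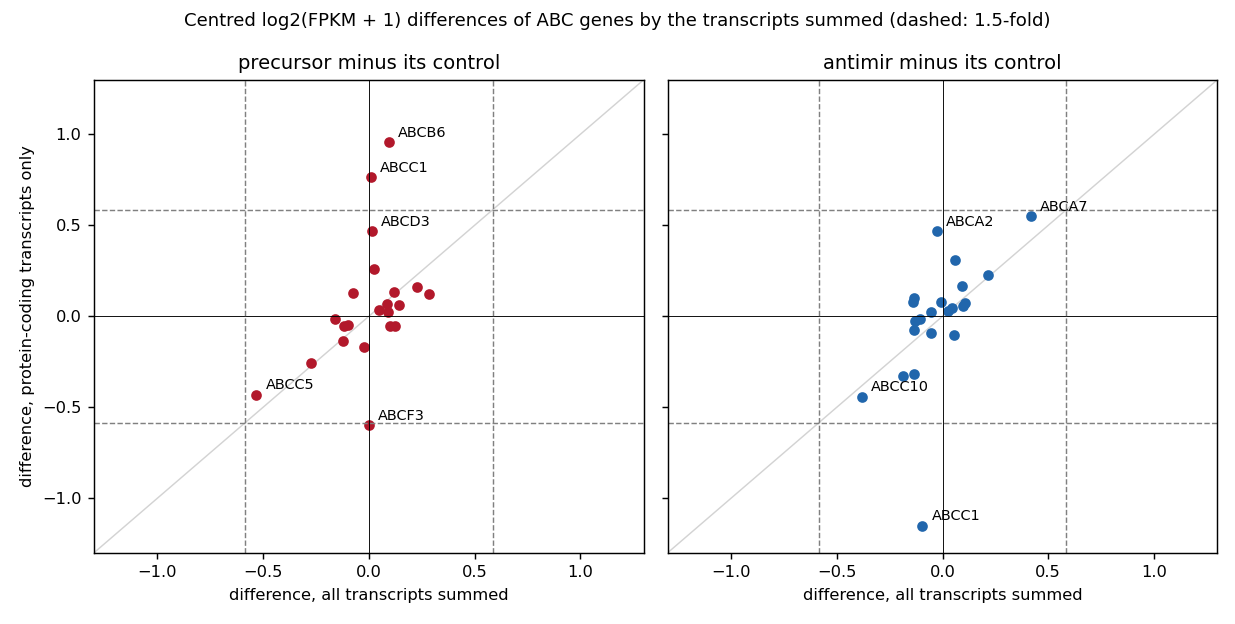
Centred log2(FPKM + 1) differences of ABC genes from protein-coding transcripts only (vertical axis) against those from all transcripts (horizontal axis), precursor minus its control on the left and antimir minus its control on the right, with dashed lines at 1.5-fold. ABCC1 lies near 0 on both horizontal axes and at 0.76 and -1.15 on the vertical axes.

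Genes that work with the ABC family are given for context. Of 3 family members with other symbols, the chloride channel CFTR stood at 58.6 FPKM in the precursor library and 52.0 FPKM in its control (0.15), and at 45.7 FPKM in the antimir library and 48.8 FPKM in its control (-0.06). The peptide transporter subunit TAP1, which is interferon-induced, stood at 4.49 FPKM in the precursor library and 5.42 FPKM in its control (-0.25), and at 10.7 FPKM in the antimir library and 4.74 FPKM in its control (1.07). TAP2 had differences of 0.12 and 0.58. TAP1 was the only one of the 3 past 1.5-fold, but TAP2 with the antimir lay just inside the line (0.581 against 0.585). The interferon-induced set was higher in the same library. Its part in the differences of TAP1 and TAP2 was not tested.

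Of 18 transcriptional regulators of ABC genes, 15 were measured with the precursor, 13 of them above 0 (median 0.09). With the antimir 16 were measured, 3 of them above 0 (median -0.09). Over protein-coding genes 51.3% were above 0 with the precursor and 49.5% with the antimir (medians 0.01 and -0.0023). None of the regulators was past 1.5-fold in either comparison, and with 1 library per group these counts have no replicate check. The drug-sensing receptor NR1I2 (PXR), a known regulator of ABCB1, was at most 0.0555 FPKM in any library. Of 19 partner genes of ABC proteins, 17 were measured, with medians of 0.05 and 0.02. The only partner past 1.5-fold was HBS1L, a ribosome rescue factor that works before ABCE1, with the antimir; 94.9% of its FPKM there had a failed status and was left out, and with it kept the difference was 0.06. Of 20 uptake carriers of drugs and bile salts, 13 were measured, with medians of -0.02 and 0.03. The organic anion carrier SLCO2B1 was past 1.5-fold in both comparisons, at 1.70 FPKM in the precursor library and 2.99 FPKM in its control (-0.59), and at 3.24 FPKM in the antimir library and 1.063 FPKM in its control (1.08). Its precursor difference lay just past the line (-0.587, with the line at 0.585 in either direction). The gene was near the filter, and its levels in the control libraries, whose tables were normalised separately, also lay apart.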

How the data were processed

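Per the submitters' processing notes, the tools were bcl2fastq 1.8.3, TopHat2 2.0.11, Cufflinks 2.2.0 and Cuffdiff, with build hg19, while their order, settings and annotation are not given in the sources used here. FPKM per isoform came in 2 tables deposited by the authors, 1 per treated library with its control, beside the p-value, q-value and call that the authors' software gave each isoform. The library named with a final N was taken as the control. The deposited log2 fold column runs control over treated and was not used.

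Transcript entries without a failed status were summed per gene; no member had a failed entry. The centring removed 0.022 (precursor) and -0.038 (antimir). Genes whose mean was 1 FPKM or more were taken as measured, with a pseudocount of 1 and a threshold of 1.5-fold (no test, 1 library per group). The calculation was tested on simulated data. GENCODE 29 (GRCh38) was matched by identifier only, for transcript types (392 of 454 transcripts of members, 86.3%), gene types and 3′ UTRs. Python 3.11.15 and pandas 2.3.3 were used.

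Values in all 4 libraries are named for the measured drug efflux pumps, ABCB1 and the most abundant member of each subfamily. They are also named for the 5 highest and 5 lowest members in each comparison. ABCC2, ABCC6 and ABCC11 are given by their highest value, and other members by counts or ranges. A few members are not reported here by name, though counts and medians include them. The members and gene lists were chosen with earlier results of these data known. Alternatives were the pseudocount, the filter, the fold threshold, the centring and the choice of transcripts.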

Additional observations from a re-analysis of the deposited data

How the results depend on the processing

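The count of members past 1.5-fold was 0 in each comparison as reported. With the precursor it was 2 at a pseudocount of 0.1 (ABCC5 -0.61, ABCA10 0.61), 1 from the most abundant isoform alone (ABCC1 0.77), 3 from protein-coding transcripts only, an alternative chosen after seeing the data, and 2 at a lower threshold of 0.32 (log2) in place of 0.58. With the antimir it was 1 with no filter on low values (ABCC8 0.79), 2 from the most abundant isoform alone (ABCC1 -1.16, ABCB6 0.60), 1 from protein-coding transcripts only and 2 at the lower threshold. Among these alternatives, the share of all genes past the line is given only for protein-coding transcripts (1.77% with the precursor and 3.72% with the antimir). The other counts have no such share beside them, so they do not set the members apart. The cause was not tested. The 2 medians moved by less than 0.1 under every alternative that was run. That margin is wider than the medians themselves (0.02 with the precursor and -0.02 with the antimir), so it does not fix their sign. The antimir median changed sign under some alternatives, among them the most abundant isoform alone and protein-coding transcripts only. Of 24 members, 18 kept 1 sign under all alternatives fixed for each comparison with the precursor and 13 with the antimir. Those alternatives leave out protein-coding transcripts only, which changed the sign of 4 members with the precursor and 6 with the antimir. With the precursor these included ABCA2, ABCB8 and ABCC3, which are counted among the 18. The most abundant isoform alone changed the sign of 6 and 8, ABCG1 among both. No paired analysis was possible because each group held 1 library and no test was made. With 1 library per group, no left-out replicate could be tried, and the depth behind each FPKM is unknown, so neither replicate error nor counting error bounds any difference.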
